A study of Mus musculus with 5 samples.

Results

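The class II and IV histone deacetylases of the mouse were followed as 7 genes taken by name: the class IIa genes *Hdac4*, *Hdac5*, *Hdac7* and *Hdac9*, the class IIb genes *Hdac6* and *Hdac10*, and the class IV gene *Hdac11*. All 7 were among the 23361 gene symbols of each library, and all 7 had a mean over all libraries of 1 FPKM or more, the minimum for testing, as 12740 genes did. FPKM scale the fragments of a gene to its transcript length and to the size of the library, so levels of different genes are compared here per length of transcript.

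Histone deacetylases with a zinc ion in the active site remove acetyl groups from lysines. Class IIa members are co-repressors: they bind MEF2 transcription factors in the nucleus, are phosphorylated by calcium-dependent and related kinases, and then leave the nucleus bound to 14-3-3 proteins. They have little deacetylase activity of their own and are found with the NCoR/SMRT complex, which carries the class I enzyme HDAC3. Class IIb enzymes act largely in the cytoplasm, HDAC6 on tubulin and HDAC10 on acetylated polyamines, and the class IV enzyme HDAC11 removes long-chain fatty acyl groups from lysine.

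RNA-seq of the hippocampus was made from 3-month-old mice, male per the study's methods, 2 controls with the genotype Hdac1 f/f and 3 *Hdac1* cKO mice with the genotype Hdac1 f/f, Nestin-Cre. Both groups therefore carried the floxed *Hdac1* allele, and no animal carried Cre alone, so the presence of Nestin-Cre and the loss of *Hdac1* cannot be told apart. Per the study, Nestin-Cre removed the gene in neurons and astrocytes and left HDAC1 detectable in microglia. It describes the libraries as coming from 2 control and 3 cKO mice.

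The deleted gene, which checks the labels, stood at 8.95 and 13.1 FPKM for the controls, and cKO libraries gave 1.95, 3.12 and 3.37 FPKM, 25.5% of the control mean; its near-identical copy Gm10093 was not used here. The 5 libraries held an estimated 5140000 to 6770000 fragments each, read from the steps between low FPKM values. Steps between low values also put the libraries in 2 sets that the labels do not name, with set 1 made of control 1 and cKO 1 and set 2 of control 2, cKO 2 and cKO 3. Between 24.6% and 28.4% of low genes shared a step within a set, and 3.71% to 4.64% did between sets. Differences are therefore also given within each set, where set 1 compares 1 library with 1 and set 2 compares 1 with 2. Markers of hippocampal neurons summed to 198 to 203 FPKM in controls and 199 to 211 FPKM in cKO libraries, and markers of thalamic neurons to at most 2.73 FPKM. Markers of the choroid plexus, which borders the hippocampus, summed to 165 and 6.16 FPKM in controls and to 73.8, 600 and 24.9 FPKM in cKO, so that cKO 2 stood apart. That library also held the lowest value of *Hdac7* and *Hdac10*, and their differences are given without it; the part of choroid plexus tissue in them was not tested.

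The active site of these enzymes is shown first, because it is where class IIa differs from the rest of the family. Below are 30 bases of coding sequence of each gene, 5′ to 3′, with capitals on the codon of the residue that follows the conserved glycines of the active site, and *Hdac1* for reference. They come from GENCODE vM1 coding transcripts (mm9).
Hdac1: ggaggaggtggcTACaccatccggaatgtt
Hdac4: cttgagggaggcCATgacctgacagccatc
Hdac5: ctggagggaggcCATgacttgaccgccatc
Hdac7: ttagagggtggaCATgacctcacggccatc
Hdac6, first domain: ctggagggtggcTATaacctccgtgccctg
Hdac6, second domain: ctagagggtggaTACaatttggcatctatc
Hdac10: ttggagggtggcTACcacttggagtcccta
Hdac11: acctcgggtgggTACcagaagcgcacagcc

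The capital codon is CAT, for histidine, in the class IIa genes shown, and TAC or TAT, for tyrosine, in *Hdac1*, *Hdac6*, *Hdac10* and *Hdac11*. It lies at chr4:129196145-129196147 in *Hdac1*, chr1:93842537-93842539 in *Hdac4*, chr11:102057913-102057915 in *Hdac5* and chr15:97626589-97626591 in *Hdac7*. In *Hdac6* it lies at chrX:7515610-7515612 and chrX:7509355-7509357, in *Hdac10* at chr15:88956503-88956505 and in *Hdac11* at chr6:91123124-91123126. All of these genes but *Hdac11* are read from the minus strand. The windows of *Hdac6* and *Hdac10* are joined from 2 exons each. The longest complete coding sequence of *Hdac9* in this annotation, 588 codons, gave no match to the glycine motif. Those of the other members were 1076 (*Hdac4*), 1121 (*Hdac5*), 953 (*Hdac7*), 1149 (*Hdac6*), 666 (*Hdac10*) and 347 codons (*Hdac11*). Translated and aligned locally, *Hdac4* and *Hdac5* shared 63.2% of 1036 aligned residues, *Hdac4* and *Hdac7* 54.7% of 909, *Hdac6* and *Hdac10* 43.3% of 642, and *Hdac10* and *Hdac11* 27.2% of 279. No member had a stretch of 200 nt or more at 95% identity or above with the coding transcript of another gene. Parts of the exons of *Hdac4* (132 of 4091 nt), *Hdac11* (96 of 3849 nt) and *Hdac7* (29 of 5530 nt) lie opposite another gene, Gm17418, Gm14573 and *Slc48a1* in that order, and without strand their reads cannot be told apart there.

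Levels among the 7 genes fell in 3 tiers. *Hdac11* and *Hdac5* were the most abundant, with means over the 5 libraries at percentiles 91.6 and 90.4 of all tested genes, *Hdac4*, *Hdac6* and *Hdac9* lay in the middle, at 60.9, 49.9 and 45.6, and *Hdac10* and *Hdac7* were low, at 16.4 and 8.95. *Hdac4*, *Hdac6*, *Hdac9*, *Hdac10* and *Hdac7* held the ranks 3 to 7 in the same order in each of the 5 libraries. Estimated fragments per library numbered 1597 to 2507 for *Hdac5*, 1030 to 1502 for *Hdac11*, and 255 to 420 for *Hdac4*, *Hdac6* and *Hdac9*, so counting error was at most 3.12% in the upper and 6.26% in the middle tier.

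**Figure D1:**
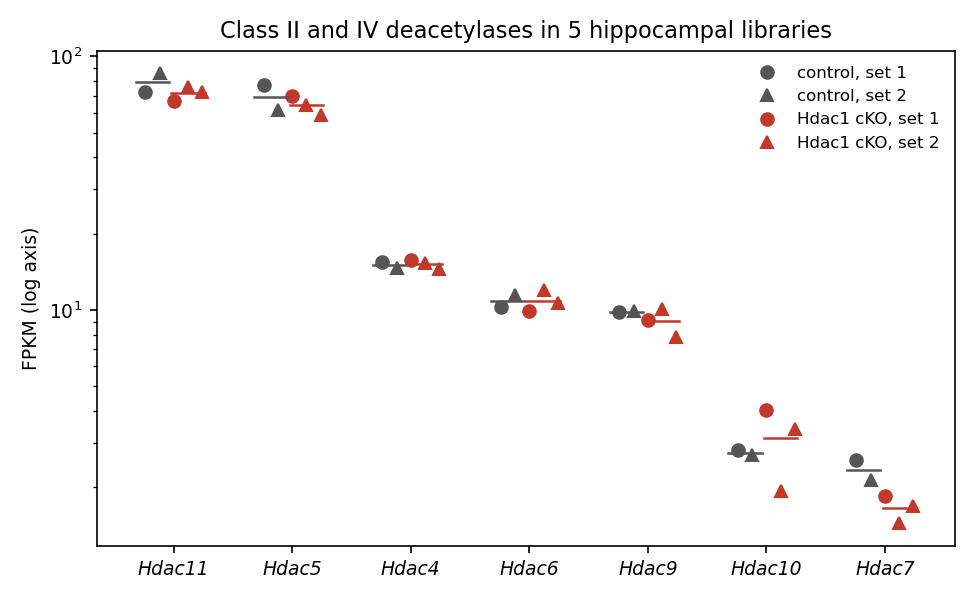
FPKM of the 7 class II and IV deacetylases in each of the 5 hippocampal libraries, on a logarithmic axis, with genotype by colour, library set by marker and group means as horizontal lines. *Hdac5* and *Hdac11* lie between 58.6 and 85.8 FPKM, and *Hdac7* is the one gene whose 3 cKO values, 1.44 to 1.85 FPKM, all lie below both control values.

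Neighbours in this order did not all stand apart. *Hdac5* exceeded *Hdac4* by a mean log2 ratio of 2.12 ± 0.12 (SD, n = 5), *Hdac4* exceeded *Hdac6* by 0.49 ± 0.14 and *Hdac9* exceeded *Hdac10* by 1.70 ± 0.50, and none of these pairs overlapped in FPKM. *Hdac6* was above *Hdac9* in 5 of 5 libraries, by 0.21 ± 0.15, and *Hdac10* above *Hdac7* in 5 of 5, by 0.60 ± 0.44, but in both pairs the ranges over libraries overlapped. *Hdac11* and *Hdac5* differed by 0.17 ± 0.25, less than the spread over libraries, and *Hdac11* was higher in 3 of 5 libraries.

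Across genotypes, 5 of the 7 genes had a lower mean on the log2(FPKM + 1) scale in cKO and 2 a higher one, with a median difference of -0.10 beside 0.01 over all tested genes. The median of the 7 was -0.02 without control 2, where that of all tested genes was 0.04, and -0.03 without cKO 3 and under the replicate block. None of the 7 passed an adjusted p of 0.05 in limma with Benjamini-Hochberg adjustment, a threshold that 0.00785% of all tested genes passed. None of the 7 passed an unadjusted p of 0.05 either, which 4.36% of tested genes did, and none passed a fold change of 1.5 together with that p, which 0.659% did. The adjusted p-values of the 7 genes ran from 0.955 to 0.995, and from 0.474 to 0.9999 over 15 alternative settings. The groups did not overlap for 1 of the 7 genes, against 20.4% of all tested genes.

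**Figure D2:**
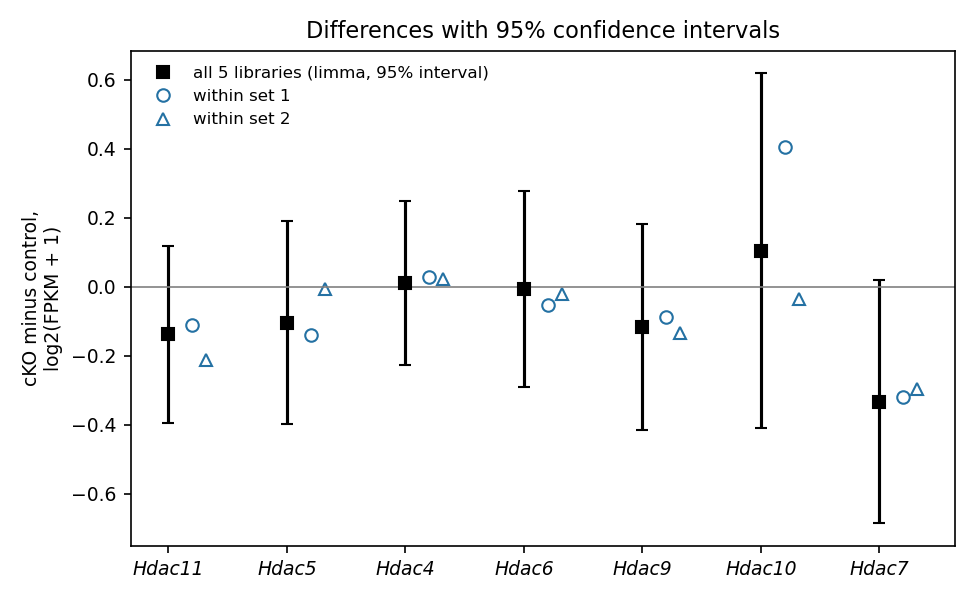
Difference of the cKO from the control mean in log2(FPKM + 1) for the 7 class II and IV deacetylases, as black squares with 95% confidence intervals from limma; open circles and triangles are the differences within set 1 and set 2. All 7 intervals include 0, and that of *Hdac7*, -0.69 to 0.02, reaches furthest below it.

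Class IIa. *Hdac5* (chr11:102055746-102091480, minus strand, mm9), whose product leaves the nucleus of neurons upon calcium influx, measured 77.2 and 61.5 FPKM in controls and 70.0, 64.0 and 58.6 FPKM in cKO. The highest value was a control and the lowest a cKO library, and the groups overlapped. Means were 69.4 ± 11.1 FPKM (SD, n = 2) and 64.2 ± 5.73 FPKM (SD, n = 3), a log2 difference of -0.10 (SE 0.13, 95% CI -0.40 to 0.19; limma adjusted p = 0.974). The difference was -0.14 within set 1 and -0.0055 within set 2, and it was 0.06 without control 1.

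*Hdac4* (chr1:93829334-94044970, minus strand), a co-repressor linked to synaptic gene expression, was the steadiest member. The annotation gives its symbol to 2 gene identifiers, and the position and overlap are those of the longer locus. *Hdac4* measured 15.5 and 14.7 FPKM in controls and 15.8, 15.4 and 14.5 FPKM in cKO. Control and cKO values alternated, with means of 15.07 ± 0.543 (SD, n = 2) and 15.2 ± 0.654 FPKM (SD, n = 3). *Hdac4* differed by 0.01 on the log2 scale (SE 0.10, 95% CI -0.23 to 0.25; limma adjusted p = 0.990), and the sign was negative after rescaling every library to a common total, at -0.05. Its coefficient of variation over the 5 libraries was 3.57%, where the median of 4998 tested genes within 2-fold of its mean level was 10.1%. The estimated counting error of *Hdac4* alone was 4.88% to 5.67% per library, more than this spread, so its steadiness is a description only.

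*Hdac9* (chr12:34732451-35213754, minus strand), known also for a short form without the catalytic domain, measured 9.81 and 9.87 FPKM in controls and 9.17, 10.1 and 7.84 FPKM in cKO. The control libraries nearly coincided, and cKO 2 lay above both and cKO 3 well below. Means were 9.84 ± 0.0439 (SD, n = 2) and 9.04 ± 1.14 FPKM (SD, n = 3), with a log2 difference of -0.12 (SE 0.13, 95% CI -0.41 to 0.18; limma adjusted p = 0.972) and -0.09 and -0.13 within the sets. Without cKO 3 it was -0.03, and without cKO 2 it was -0.19.

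*Hdac7* (chr15:97623095-97674933, minus strand), known for its part in endothelial cells and thymocytes, was the least abundant member. It measured 2.55 and 2.14 FPKM in controls and 1.85, 1.44 and 1.68 FPKM in cKO. All 3 cKO values lay below both control values, which 9.41% of all tested genes also showed in this direction. The cKO mean of 1.66 ± 0.204 FPKM (SD, n = 3) was 70.6% of the control mean of 2.35 ± 0.291 FPKM (SD, n = 2). On the log2(FPKM + 1) scale, which understates changes at this level, the difference was -0.33 (SE 0.15, 95% CI -0.69 to 0.02; limma adjusted p = 0.955). It was -0.32 within set 1, -0.30 within set 2 and -0.27 without cKO 2, and it kept its sign in each of the 14 alternative settings that tested the gene, between -0.48 and -0.24. It passed an unadjusted p of 0.05 in 2 of those settings, after rescaling to a common total and without the variance trend, and its adjusted p ran from 0.474 to 0.9999 over them.

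The depth behind *Hdac7* was small. Its values rest on an estimated 72.3 and 59.8 fragments in the controls and 53.0, 31.4 and 44.9 in cKO, a counting error of 11.8% to 17.9% per library. Summed markers of endothelial cells were 95.3 and 95.6 FPKM in controls and 78.7, 80.8 and 110 FPKM in cKO, with 4 of 10 markers higher and 6 lower, none of them at 0. The part of this cell type in the *Hdac7* values was not tested. In bulk tissue, fewer cells of a type and less RNA per cell cannot be told apart.

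Class IIb. *Hdac6* (chrX:7507246-7525015, minus strand), the tubulin deacetylase, measured 10.3 and 11.5 FPKM in controls and 9.86, 11.99 and 10.6 FPKM in cKO. The lowest and the highest value were both cKO libraries. Means were 10.9 ± 0.860 (SD, n = 2) and 10.8 ± 1.08 FPKM (SD, n = 3), and the log2 difference was -0.0067 (SE 0.12, 95% CI -0.29 to 0.28; limma adjusted p = 0.995), with a sign that turned under 4 alternative settings.

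*Hdac10* (chr15:88953733-88959130, minus strand), the polyamine deacetylase, measured 2.79 and 2.68 FPKM in controls and 4.02, 1.94 and 3.39 FPKM in cKO. The 2 controls lay close together between the cKO values, which spread from the lowest to the highest of all libraries. Means were 2.73 ± 0.0814 (SD, n = 2) and 3.11 ± 1.07 FPKM (SD, n = 3), a log2 difference of 0.10 (SE 0.22, 95% CI -0.41 to 0.62; limma adjusted p = 0.986). The difference was 0.40 within set 1 and -0.03 within set 2; without cKO 1 it was -0.06 and without cKO 2 it was 0.33. *Hdac10* had the largest coefficient of variation of the 7 genes, 26.5% beside a median of 15.8% for 3472 genes of similar level, with an estimated 24.01 to 65.6 fragments per library and a counting error of 12.3% to 20.4%.

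Class IV. *Hdac11* (chr6:91106659-91124686, plus strand), the only member of its class, measured 72.0 and 85.8 FPKM in controls and 66.7, 75.5 and 72.1 FPKM in cKO. Control 2 was the highest library and cKO 1 the lowest, and control 1 lay among the cKO values. Means were 78.9 ± 9.71 (SD, n = 2) and 71.5 ± 4.47 FPKM (SD, n = 3). *Hdac11* differed by -0.14 on the log2 scale (SE 0.11, 95% CI -0.39 to 0.12; limma adjusted p = 0.955), with -0.11 within set 1 and -0.21 within set 2, and -0.01 without control 2. With the library set as a block, *Hdac11* was the 1 member of 7 with an unadjusted p under 0.05 (log2 difference -0.17, limma adjusted p = 0.498), where 9.34% of all tested genes passed.

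The order of the 2 most abundant members followed the library sets. *Hdac5* was higher than *Hdac11* in control 1 and cKO 1, and *Hdac11* was higher than *Hdac5* in control 2, cKO 2 and cKO 3. With genotype in the model, set 2 differed from set 1 by -0.25 for *Hdac5* (limma adjusted p = 0.106) and by 0.19 for *Hdac11* (limma adjusted p = 0.149) on the log2 scale, and neither gene overlapped between the sets. These were the 2 of 7 members with an unadjusted p under 0.05 for the set, which 22.9% of all tested genes reached, while 0 of 7 passed the adjusted threshold that 3.09% passed. *Hdac4* was also lower in set 2, and *Hdac6* higher, without overlap between the sets, with differences of -0.07 (adjusted p = 0.6497) and 0.17 (adjusted p = 0.354) in the same limma model. In all, 4 of the 7 members did not overlap between the sets, beside 40.1% of all tested genes.

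**Figure D3:**
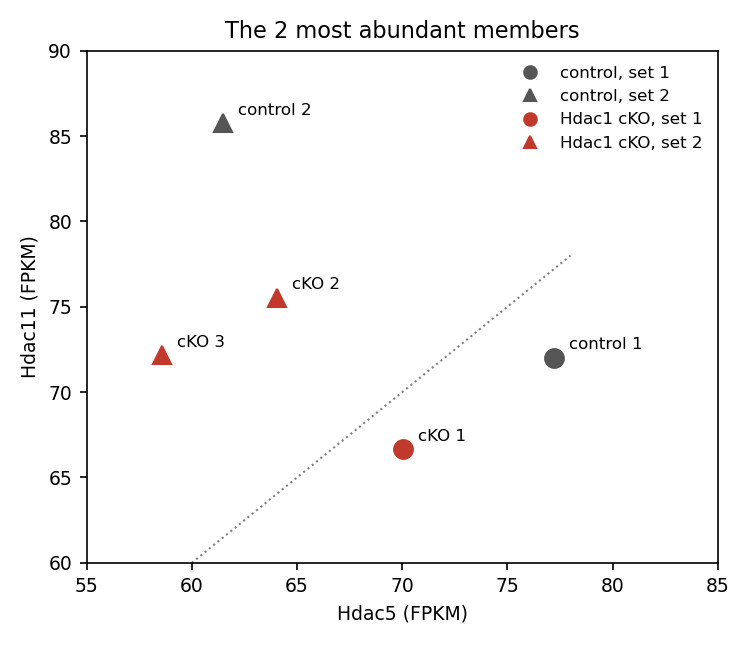
FPKM of *Hdac11* against FPKM of *Hdac5* in the 5 libraries, with genotype by colour and library set by marker, and a dotted line where both are equal. Axes do not start at 0. Control 1 and cKO 1 lie on the *Hdac5* side of the line and the 3 libraries of set 2 on the *Hdac11* side.

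Summed over the class, the 7 genes gave 190.1 and 188.1 FPKM in controls and 177.4, 180.4 and 168.8 FPKM in cKO, means of 189.1 ± 1.42 (SD, n = 2) and 175.5 ± 6.03 FPKM (SD, n = 3). The 2 controls lay above the 3 cKO libraries. *Hdac5* and *Hdac11* together made up 77.1% to 78.5% of this sum in every library. Of the summed FPKM of all 11 zinc-dependent deacetylases, class II and IV held 68.4 ± 3.85% in controls and 68.6 ± 2.21% in cKO, a difference of 0.223 percentage points that is smaller than either spread. It was 2.94 points without control 1, -2.50 without control 2 and -0.948 without cKO 1. The class IIb share of the 11 was 4.88% and 4.94% in controls and 5.55%, 5.27% and 5.53% in cKO, without overlap, but this denominator contains the deleted gene. Within class II and IV alone, the class IIb share was 6.86% and 7.52% in controls and 7.82%, 7.72% and 8.31% in cKO, also without overlap. The class IIb sum itself overlapped, at 13.1 and 14.2 FPKM in controls and 13.88, 13.92 and 14.03 FPKM in cKO, while both denominators had a lower mean in cKO. These sums and shares are descriptions and carry no test.

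**Figure D4:**
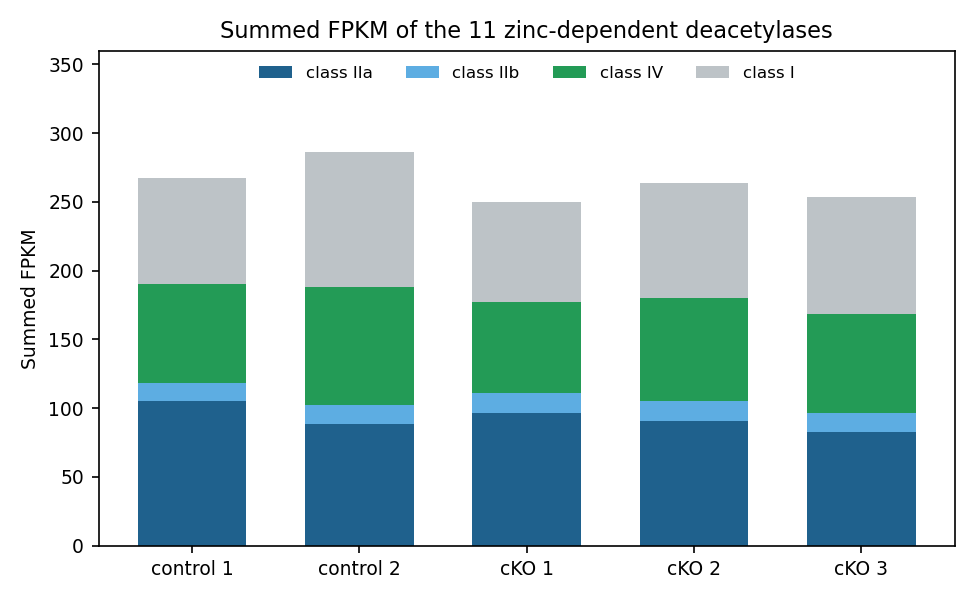
Summed FPKM of the deacetylase classes in each of the 5 libraries, as stacked bars that start at 0, for class I, class IIa, class IIb and class IV. The total of all 11 genes runs from 250.0 FPKM in cKO 1 to 286.4 FPKM in control 2, and class IIb is the thinnest layer throughout, at 13.1 to 14.2 FPKM.

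Class I served for comparison. *Hdac1* differed by -1.66 on the log2 scale (SE 0.21; limma adjusted p = 0.219), and with the library set as a block the adjusted p was 0.00389. Its closest relative *Hdac2* measured 30.6 and 38.6 FPKM in controls and 28.6, 34.8 and 34.6 FPKM in cKO (limma adjusted p = 0.978), and *Hdac3* differed by 0.04 (adjusted p = 0.989). *Hdac8* was the other deacetylase besides *Hdac1* and *Hdac7* whose groups did not overlap, at 7.24 and 7.59 FPKM in controls and 8.05, 9.77 and 10.7 FPKM in cKO, a difference of 0.31 (limma adjusted p = 0.955). That made 3 of 11 deacetylases without overlap, beside the 20.4% of all tested genes.

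The partners of the 7 enzymes were taken from 7 lists of 58 genes in all, of which 53 were tested. None passed the adjusted threshold. At an unadjusted p of 0.05, 4 of 53 were lower in cKO and 0 were higher, where 1.99% of all tested genes were lower; the smallest adjusted p was 0.955. In all, 36 of the 53 had a lower and 17 a higher mean in cKO, with a median difference of -0.03, beside 5896 lower and 6844 higher of all 12740 tested genes and their median of 0.01. The groups were without overlap for 8 of the 53 in the lower and 4 in the higher direction. Over all tested genes, 20.4% were without overlap in either direction, so a lack of overlap named below is not particular to the partners.

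Among the MEF2 factors that class IIa enzymes repress, 3 of 4 were tested and all 3 were lower in the mean, 1 of them at an unadjusted p under 0.05. That was *Mef2d*, at 27.0 and 22.7 FPKM in controls and 21.6, 18.1 and 17.9 FPKM in cKO, without overlap, a log2 difference of -0.36 (SE 0.13; limma adjusted p = 0.955). The difference was -0.31 and -0.32 within the sets. *Mef2d* no longer passed the unadjusted threshold without control 1, at -0.24, without cKO 2, at -0.32, without cKO 3, at -0.31, or without moderation of variances. Of its exons, 527 of 5985 nt overlap a gene on the other strand, 1700113A16Rik, and the use of strand in counting is not given in the sources used here. *Mef2a*, the most abundant, differed by -0.15 (limma adjusted p = 0.955).

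Of 14 kinases that phosphorylate class IIa enzymes, 13 were tested, with 11 lower and 2 higher in the mean and 1 at an unadjusted p under 0.05. *Camk2d*, the delta chain of CaM kinase II, measured 9.62 and 12.3 FPKM in controls and 7.88, 8.001 and 7.29 FPKM in cKO, a log2 difference of -0.45 (SE 0.13; limma adjusted p = 0.955). All 3 cKO values were below both controls, and the difference was -0.26 in set 1 and -0.62 in set 2. Without control 2 it was -0.29 and *Camk2d* no longer passed the unadjusted threshold. The alpha chain *Camk2a*, the most abundant kinase of the list, differed by -0.07 (limma adjusted p = 0.989).

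Of the 14-3-3 proteins, 6 of 7 were tested, with 2 higher and 4 lower in the mean. *Ywhaq* (14-3-3 theta) was without overlap in the higher direction, at 317 and 314 FPKM in controls and 352, 355 and 338 FPKM in cKO (log2 difference 0.14, limma adjusted p = 0.955). It was chosen after its values were seen, and its transcript shares a near-identical stretch with that of *Cdk5rap2*. *Ywhag* (14-3-3 gamma) measured 137 and 127 FPKM in controls and 113, 82.9 and 107 FPKM in cKO, without overlap, a log2 difference of -0.40 (SE 0.14; limma adjusted p = 0.955). Its lowest value was in cKO 2, and without that library the difference was -0.26. *Ywhag* no longer passed the unadjusted threshold without control 1, at -0.34, or without moderation of variances. *Ywhah* differed by -0.04 (adjusted p = 0.989). Among the 6 genes of the NCoR/SMRT complex with HDAC3, 0 passed the unadjusted threshold, and 1 did with the library set as a block, where 9.34% of all tested genes passed. The median was 0.02, with *Ncor1* at 0.08 (limma adjusted p = 0.974), 0.02 without control 1, 0.15 without control 2 and 0.14 without cKO 1.

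No MEF2 target gene passed either threshold in limma under the main setting. At the unadjusted threshold, 2 of them passed without cKO 1 and 2 under the replicate block. At a common total 1 passed, as did 1 with the library set as a block, where 9.34% of all tested genes did. Of 9 such genes 7 were tested, 3 higher and 4 lower in the mean, with a median of -0.11; the activity-regulated gene *Arc*, the most abundant, differed by 0.06 (limma adjusted p = 0.989). All 13 substrates and partners of HDAC6 were tested, with 5 higher, 8 lower and a median of -0.03. The tubulin gene *Tuba1a*, the most abundant of them, differed by 0.08 (limma adjusted p = 0.974) and shares near-identical sequence with other tubulin genes.

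For HDAC10 and HDAC11, 5 genes of the polyamine pathway and acyl substrates were tested, 1 higher and 4 lower in the mean. *Shmt2*, the serine hydroxymethyltransferase that HDAC11 acts on, measured 6.23 and 6.20 FPKM in controls and 4.57, 3.99 and 5.27 FPKM in cKO, without overlap, and its log2 difference was -0.37 (SE 0.14; limma adjusted p = 0.955) with -0.38 and -0.36 within the sets. Without cKO 2, which held the lowest value, it was -0.29. *Shmt2* no longer passed the unadjusted threshold without cKO 2, control 1 or control 2, or without moderation of variances. *Sat1*, the spermidine/spermine acetyltransferase, measured 49.8 and 47.8 FPKM in controls and 60.02, 52.7 and 51.1 FPKM in cKO, also without overlap. It differed by 0.16 (limma adjusted p = 0.955), and by 0.09 without cKO 1.

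**Figure D5:**
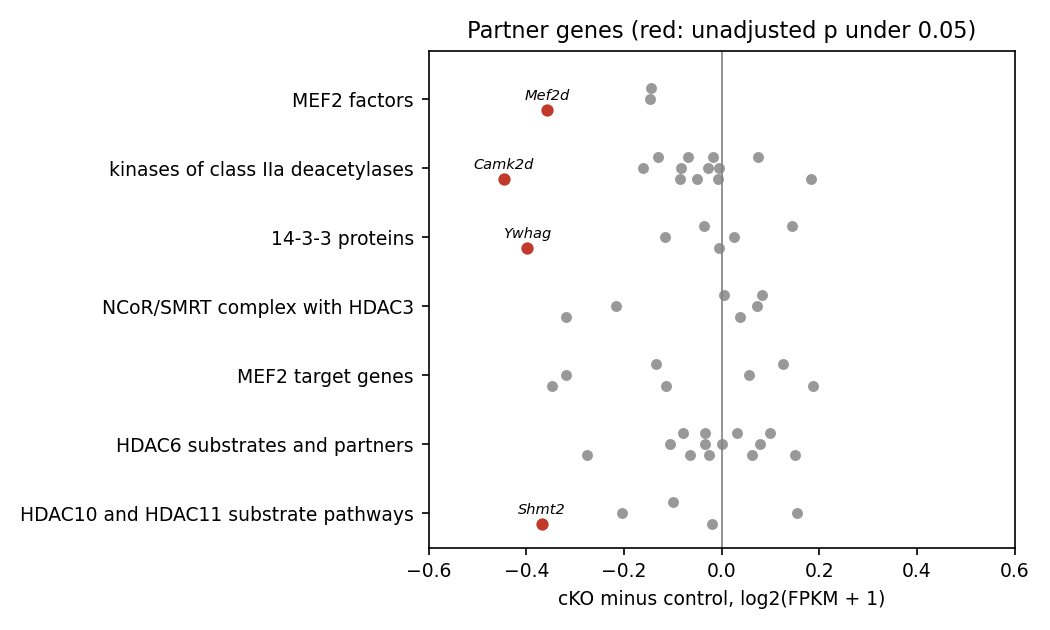
Difference of the cKO from the control mean in log2(FPKM + 1) for the 53 tested partner genes, 1 point per gene, grouped by the 7 lists, with genes at an unadjusted p under 0.05 marked. The 4 marked genes, *Mef2d*, *Camk2d*, *Ywhag* and *Shmt2*, all lie below 0, between -0.45 and -0.36.

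Markers of neurons, astrocytes and oligodendrocytes were also compared between the genotypes. Summed neuronal markers were 2141 to 2315 FPKM in controls and 2077 to 2224 FPKM in cKO, with 9 of 10 lower in the mean and 2 of them at an unadjusted p under 0.05, beside 1.99% of all tested genes in this direction. Summed astrocyte markers were 2755 to 2772 FPKM in controls and 2996 to 3154 FPKM in cKO, with 8 of 10 higher and 2 of them at that threshold, beside 2.37% of all tested genes. Summed oligodendrocyte markers were 1691 to 1960 FPKM in controls and 1671 to 2162 FPKM in cKO, with 8 of 9 higher in the mean and 0 at that threshold in limma. No marker of these types was at 0, and their part in the values of the 7 deacetylases and of the partners was not tested.

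For each member, the tested gene with the most similar profile was sought by the root mean square difference of log2(FPKM + 1), centred per gene, over the 5 libraries and 12005 genes. It was *Trim45* for *Hdac11* (0.0126), *Mon1b* for *Hdac5* (0.0226), *Id2* for *Hdac4* (0.0080), *Cds1* for *Hdac6* (0.0116), *Foxj2* for *Hdac9* (0.0213), *Vwa1* for *Hdac10* (0.0553) and *Tmem201* for *Hdac7* (0.0145). With 5 libraries and this many genes, a close profile is a description only.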

How the data were processed

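The authors deposited FPKM per gene and library. Per the labels and the study's methods, they obtained these FPKM with Cufflinks 2.0.0 after aligning reads to mm9 with TopHat and Bowtie, from Illumina TruSeq total RNA libraries. Of the gene symbols, 90.8% matched GENCODE vM1, annotated on the same build, from which 1-based positions and coding sequences were read. FPKM are not counts, so genotype was tested with limma 3.58.1 (R 4.3.3) on log2(FPKM + 1), by lmFit and eBayes with a variance trend, in all 5 libraries, two-sided, with Benjamini-Hochberg adjustment over the 12740 genes whose mean reached 1 FPKM. The script was run on simulated data with planted changes, noise independent between libraries and no library sets. That run does not measure its performance on these data.

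Only an average read yield over all samples is stated in the methods, and totals per library are not given in the sources used here. Fragments per library were estimated from steps in FPKM of genes with 1 annotated transcript above a minimum length and a value under 1 FPKM. These estimates rest on 30 and 38 genes in set 1 and on 73 to 77 genes in set 2. Fragments per gene assume the length of its longest coding transcript, and shorter forms would give fewer fragments and larger errors. Errors from these fragments cover counting error only. Libraries were put in 1 set where over 10% of genes with a mean under 0.3 FPKM shared a ratio within 0.05 log2 units. Near-identical copies were sought with BLAST 2.17.0, and translated sequences were aligned with Biopython 1.88.

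Members and gene lists were chosen with earlier results of these data known. Named were all 11 deacetylases and, per list, the most abundant gene and up to 2 genes with the lowest unadjusted p under 0.05. Similar profiles were sought without microRNA, small nucleolar, predicted and Rik genes. Alternatives were another pseudocount, filters, scalings, variance models, a replicate block, the library set as a block, and leaving out each library.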

Additional observations from a re-analysis of the deposited data

How the results depend on the processing

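Of 103 log2 differences of the 7 members under 15 alternatives, 93 kept their direction and 10 reversed, and none passed the adjusted threshold. *Hdac4* was -0.0030 with median-ratio size factors and -0.0510 at a common total. *Hdac6* was 0.0031 under the replicate block. At a common total *Hdac3* was -0.0280 and *Arc* -0.0098, and with quantile normalization *Tuba1a* was -0.0182. The median of all tested genes was 0.01 as deposited and -0.04 at a common total. Leaving out 1 library at a time gave ranges of -0.27 to 0.0579 for *Hdac5*, -0.0228 to 0.0461 for *Hdac4*, -0.0807 to 0.0672 for *Hdac6*, -0.0568 to 0.33 for *Hdac10*, -0.24 to 0.0845 for *Hdac2*, -0.14 to 0.21 for *Hdac3*, -0.30 to 0.0101 for *Mef2a*, -0.15 to 0.0863 for *Camk2a*, -0.0875 to 0.00056 for *Ywhah*, -0.0325 to 0.17 for *Arc* and -0.0167 to 0.17 for *Tuba1a*. The difference in the class II and IV share ranged from -2.50 to 2.94 percentage points. The cause of these reversals was not tested. Where an arm kept 1 library, it was assumed to vary like the other group.

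Members at an unadjusted p under 0.05 numbered 0, and 1 at a common total and without a variance trend (*Hdac7*) and with the library set as a block (*Hdac11*). Partner genes at that threshold numbered 4 of 53, beside 4.36% of all tested genes, and 8 with the library set as a block, beside 9.34%. They numbered 2 without moderation of variances, 7 under the replicate block, 7 without cKO 1, 2 without cKO 2 and 3 without cKO 3. Shares of all tested genes under these other settings are not given here, so these counts are descriptions only. A minimum mean of 5 FPKM left *Hdac7* and *Hdac10* untested. *Hdac1* passed the adjusted threshold under the replicate block, at -1.77, and with the library set as a block, at -1.74.

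Samples share only a number across groups, and replicate 3 has no control. Deviations from group means correlated at 0.402 for replicate 1 and 0.269 for replicate 2 over 12740 genes. Each pair also lies inside 1 library set, so number and set cannot be told apart in these correlations. Control 2 and cKO 3 share a set but no number, and 25.4% of their low genes shared a step, beside 27.9% for control 2 and cKO 2. Depth limits *Hdac7* and *Hdac10* most, and 2 controls limit every comparison.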
